A study of Homo sapiens with 18 samples.

Results

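Interferon-stimulated genes are the genes that cells switch on when interferon binds its receptor, and 43 of them, taken by name from textbook knowledge when earlier results of these data were known, are described here in RNA-sequencing of WDR5 knockdown in breast cancer cells. The table holds 58815 genes in all, and all 43 members were found in it, 42 by symbol and OAS1 by its gene identifier. The cells are LM2, BrM3 and BoM, established derivatives of the human triple-negative breast cancer cell line MDA-MB-231 that were selected for growth in lung, brain and bone. The titles call the brain line BrM and the cell line labels call it BrM2, the line from which BrM3 was derived, so the name BrM3 is the study's and which of the 2 was sequenced was not tested. Each line carried a hairpin that is expressed when doxycycline (DOX) is added, either the control shCtrl or shWDR5-1, a hairpin against WDR5, and every group, shCtrl included, received DOX at 1 μg/mL for 3 days. The 6 groups had 3 libraries each, 18 in all, from cells harvested at different passages. Each line is a single derivative and a single WDR5 hairpin was sequenced, so the effect of losing WDR5 cannot be told apart from another effect of that hairpin.

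WDR5 is a scaffold of the complexes that methylate histone H3 at lysine 4. Type I and type III interferons signal through JAK kinases and STAT proteins to a complex of STAT proteins with IRF9 that binds a DNA sequence called ISRE, whereas interferon gamma acts through STAT dimers on a sequence called GAS. The genes switched on in this way include sensors of viral RNA, enzymes that block viral translation, proteins that stop viruses at membranes, and the transcription factors that sustain the response. Many cancer cells keep a part of these genes active without added interferon.

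Total counts per library lay between 17485841 and 119667013. The titles and the cell line labels place each library in its line, while the labels of the source material name another line for most libraries and were not used. By gene expression, 18 of 18 libraries had their closest library in the line of their title. WDR5 was present at 112, 128 and 133 CPM (counts scaled to library size) with shCtrl in LM2 and at 24.2, 24.3 and 20.4 CPM with shWDR5, and its log2 fold change was -2.43 ± 0.14 (SE) in LM2, -1.97 ± 0.14 in BrM3 and -2.24 ± 0.14 in BoM. Among 7 breast epithelial markers, KRT8 and KRT18 were abundant, EPCAM lay between 4.37 and 10.1 CPM, and CDH1, the epithelial cadherin, stayed at or below 0.598 CPM. VIM, a mesenchymal marker, had at least 1488 CPM in every library. Of 3 receptor genes listed as absent in triple-negative lines, ESR1 had 3 to 25 counts per library and PGR 0 to 35. The third, ERBB2, was present in every library, at 41.3 to 82.9 CPM. Among leukocyte markers, PTPRC had 2 to 40 counts per library, CD3E 0 to 3, CD68 0 to 8 and ITGAM 0 to 10, while CD14 had 9 to 431 and was lower after shWDR5 in BrM3, at -1.78 ± 0.45 (adjusted p = 0.0167), and on average. After shWDR5, 4.80% of all tested genes were lower in LM2, 7.96% in BrM3 and 10.8% in BoM. On average 15.6% were higher and 19.9% lower. Of the 6 epithelial markers tested, 0 passed in LM2, 3 were lower in BrM3 and 4 in BoM. Averaged over the lines, 1 of these markers was higher and 4 were lower. Their summed level over 7 genes went from 713.9 to 909.8 CPM with shCtrl to 898.1 to 924.6 CPM with shWDR5 in LM2, from 788.8 to 924.5 to 664.8 to 930.5 CPM in BrM3, and from 647.8 to 883.7 to 575.8 to 654.9 CPM in BoM. VIM was higher on average, at 0.20 ± 0.06 (adjusted p = 0.0116), and the stromal marker PDGFRB was lower in every line and on average, at -0.87 ± 0.11 (adjusted p = 1.1e-05). The endothelial marker PECAM1, with 16 to 268 counts per library, was higher in LM2 and on average, and CDH5 had 0 to 13 counts. PECAM1 passed the expression threshold only through shWDR5 libraries, where it was highest, and what this does to its fold changes was not tested. The part of these changes in the results on interferon-stimulated genes was not tested. In such bulk samples, fewer cells that express a gene and less RNA per cell cannot be told apart.

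Promoters of RefSeq on GRCh38.p14, from 250 bases before to 50 bases after the annotated start, were given for 34 of the 43 members. IFIT2, IFITM2, MX2, OAS2, OASL, IRF7, USP18, TRIM22 and GBP2 had no entry. The core of the ISRE, searched as 2 copies of GAAA with any 2 bases between them, on both strands and with overlapping matches kept, was found in 22 of the 34 promoters (64.7%) and in 3.57% of 34796 promoters of all genes. The GAS letters TTCNNNGAA, which read the same on both strands, were found in 9 of the 34 (26.5%) and in 7.67% of all promoters. An ISRE core was present in 9 of 11 promoters of members that were lower on average after shWDR5, in 4 of 6 of those that were higher and in 8 of 12 of those that passed neither way and in 1 of 5 of those below the expression threshold. The stretches below show the ISRE core in capitals, read 5′ to 3′ along the gene and upstream of the start. The first 4 genes were lower on average after shWDR5, the next 3 were higher, and the last did not pass the test.
IFIT1, chr10:89392492-89392544, forward strand: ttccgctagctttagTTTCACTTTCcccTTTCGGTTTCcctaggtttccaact
IFIT3, chr10:89327826-89327899, forward strand: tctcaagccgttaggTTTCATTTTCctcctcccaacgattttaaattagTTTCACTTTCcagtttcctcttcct
IFITM1, chr11:313985-314024, forward strand: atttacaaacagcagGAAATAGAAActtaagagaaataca
BST2, chr19:17405730-17405775, reverse strand: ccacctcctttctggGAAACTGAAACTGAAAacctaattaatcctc
PARP14, chr3:122680795-122680834, forward strand: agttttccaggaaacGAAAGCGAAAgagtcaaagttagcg
SAMD9, chr7:93118091-93118130, reverse strand: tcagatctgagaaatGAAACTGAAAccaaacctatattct
GBP1, chr1:89065311-89065350, reverse strand: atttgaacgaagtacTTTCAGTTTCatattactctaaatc
ISG15, chr1:1013369-1013414, forward strand: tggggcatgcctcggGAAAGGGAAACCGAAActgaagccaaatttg

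The 2 cores of BST2 share their middle GAAA, as do the 2 of ISG15, while those of IFIT1 and IFIT3 are separate. In MX1 and TRIM21 the matches lay after the annotated start, from base 11 in MX1 and from base 17 in TRIM21, counting the start as 0. OAS1, which had the largest fall on average among the 36 tested members, had no ISRE core in this window and a GAS match that began 168 bases before the start.

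**Figure D1:**
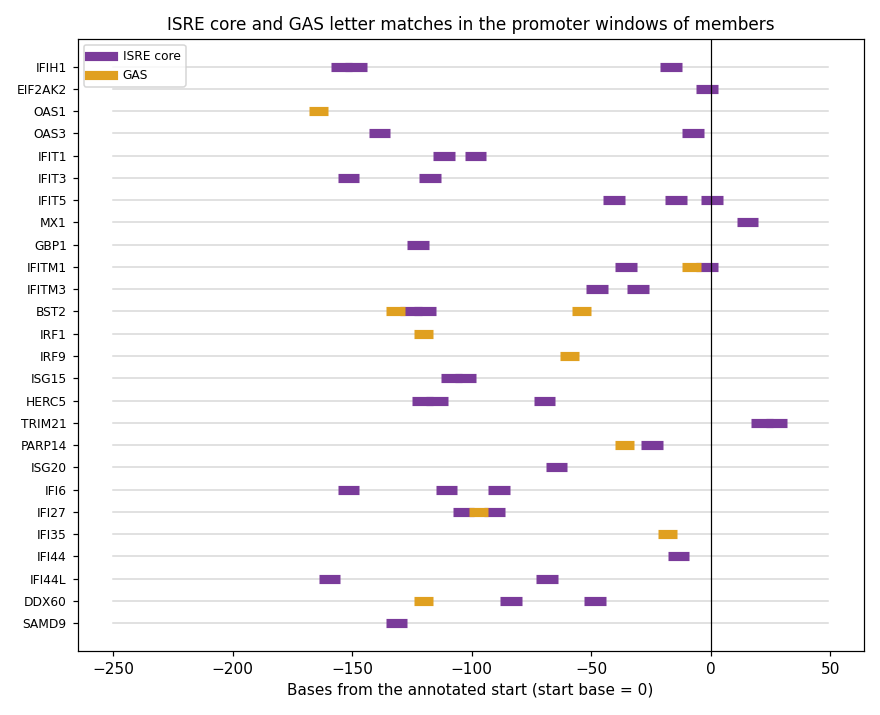
Position of letter matches in the promoter windows of members that hold at least 1, in bases from the annotated start, with the ISRE core in purple and GAS in orange. Most ISRE cores lie in the 160 bases before the start, and those of MX1 and TRIM21 lie after it.

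Genes were tested if their highest normalized count passed a threshold of 139.697, chosen where replicates agreed best on which genes were expressed, and this left 12160 genes and 36 members. Members were called where edgeR's quasi-likelihood test gave an adjusted p (Benjamini-Hochberg, over all 12160 genes) under 0.05, and log2 fold changes of shWDR5 over shCtrl are given with their SE. In LM2, 0 members were higher and 3 were lower, against 1.49% and 4.80% of all tested genes. In BrM3, 1 member was higher and 9 (25% of those tested) were lower, against 2.92% and 7.96% of all genes. In BoM, 3 members were higher and 8 (22.2%) were lower, against 5.41% and 10.8% of all genes. Averaged over the 3 lines, 6 members were higher and 14 (38.9%) were lower, against 15.6% and 19.9% of all genes. The share of members called lower was thus above the background in BrM3, in BoM and on average, and the share called higher was near it. In LM2 the share called lower rested on 3 members (8.33%), and without shWDR5 2 only 1 member was called. MX1 and OAS3 were lower in all 3 lines, as were 3.26% of all genes, and 0 members were higher in all 3 lines, against 0.748% of all genes.

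**Figure D2:**
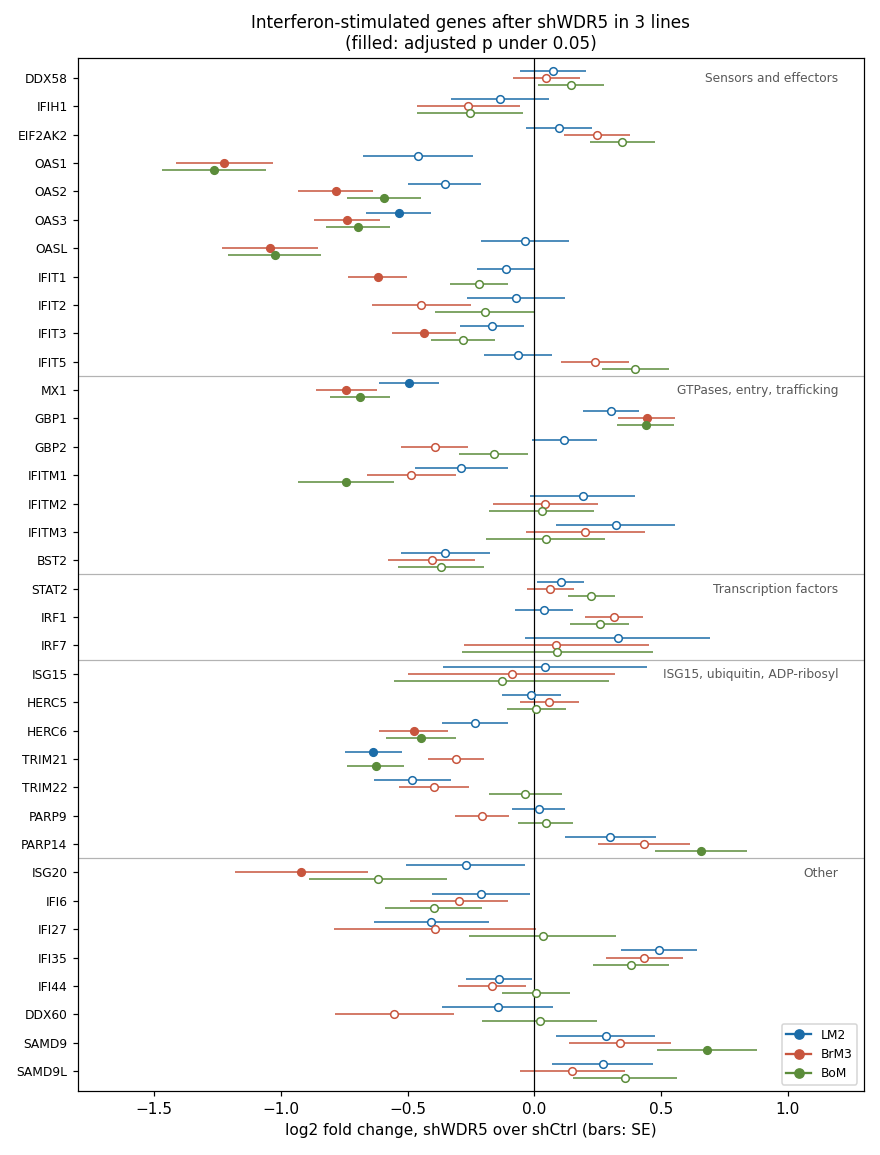
Log2 fold change of shWDR5 over shCtrl with its SE for the 36 tested members, grouped by role, in LM2 (blue), BrM3 (red) and BoM (green). Filled points mark an adjusted p under 0.05. OAS1 and OASL reach the lowest values, in BrM3 and BoM, and the filled points on the right belong to GBP1, PARP14 and SAMD9.

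The median log2 fold change of the members was -0.07 in LM2, -0.28 in BrM3, -0.01 in BoM and -0.18 on average, and that of all tested genes was within 0.02 of 0 in each case. The list therefore did not move as a whole in BoM, where 18 members had a positive and 18 a negative fold change. The split into higher and lower calls varied with the method, and the cause was not tested. With DESeq2 it was 1 to 3 in LM2, 3 to 10 in BrM3, 6 to 8 in BoM and 8 to 14 on average. With a correction for the GC content of genes it was 3 to 3, 7 to 11, 8 to 10 and 11 to 15. Members called either way were then 4, 13, 14 and 22 of 36 with DESeq2, against 9.44%, 14.7%, 20.3% and 39.5% of all genes, and 6, 18, 18 and 26 with GC correction, against 16.3%, 24.5%, 28.2% and 51.3%, so that in LM2 the share of members after GC correction was near that of all genes. The number of lower calls was 3 in LM2 and 8 to 11 in BrM3 and BoM under all of these.

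The OAS proteins are enzymes that sense double-stranded RNA and make the second messenger that activates RNase L, apart from OASL, which binds RNA sensors and makes no such messenger. OAS1, OAS3 and OAS2 lie next to each other on chromosome 12, at chr12:112905856-112933219, chr12:112938051-112976460 and chr12:112978395-113011723 (GENCODE 44 on GRCh38, as for the other coordinates of genes), and OASL lies apart at chr12:121017763-121039246. All 4 were lower on average after shWDR5, and all 4 were called in BrM3 and BoM, whereas in LM2 only OAS3 was called among them.

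OAS1 had 1.28, 1.11 and 1.05 CPM with shCtrl and 0.940, 0.739 and 0.784 CPM with shWDR5 in LM2, 4.82, 4.07 and 3.86 CPM with shCtrl and 2.44, 1.82 and 1.402 CPM with shWDR5 in BrM3, and 2.598, 2.68 and 3.51 CPM with shCtrl and 1.25, 1.27 and 1.07 CPM with shWDR5 in BoM. The groups did not overlap in any line, and the BoM libraries with shWDR5 lay within the range of the LM2 libraries with shCtrl. OAS1 passed the expression threshold only through shCtrl libraries, where it was highest, and what this does to its fold changes was not tested. The log2 fold change was -0.46 ± 0.22 (adjusted p = 0.246) in LM2, -1.22 ± 0.19 (adjusted p = 0.00074) in BrM3, -1.26 ± 0.21 (adjusted p = 0.000532) in BoM and -0.98 ± 0.12 (adjusted p = 8.0e-06) on average. OAS2 had 21.6, 17.99 and 15.98 CPM with shCtrl and 15.9, 13.96 and 13.4 CPM with shWDR5 in LM2, 15.4, 12.9 and 13.8 CPM with shCtrl and 8.87, 7.85 and 7.88 CPM with shWDR5 in BrM3, and 17.7, 13.5 and 17.6 CPM with shCtrl and 12.8, 9.96 and 9.43 CPM with shWDR5 in BoM. Its groups were also apart in each line, by a smaller distance in LM2, where shCtrl 3 and shWDR5 1 nearly met. Its log2 fold change was -0.35 ± 0.14 (adjusted p = 0.165), -0.78 ± 0.15 (adjusted p = 0.00267), -0.59 ± 0.15 (adjusted p = 0.0109) and -0.58 ± 0.08 (adjusted p = 5.8e-05) in the same order, and with the BoM groups fitted alone its adjusted p there was 0.0645.

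OAS3 had 39.6, 37.98 and 35.7 CPM with shCtrl and 27.9, 24.8 and 25.4 CPM with shWDR5 in LM2, 36.98, 36.4 and 38.5 CPM with shCtrl and 20.1, 24.2 and 22.7 CPM with shWDR5 in BrM3, and 62.5, 49.8 and 57.95 CPM with shCtrl and 43.2, 33.2 and 28.6 CPM with shWDR5 in BoM. Every shWDR5 library was below every shCtrl library of its line. Its log2 fold change was -0.54 ± 0.13 (adjusted p = 0.0176) in LM2, -0.74 ± 0.13 (adjusted p = 0.00159) in BrM3, -0.70 ± 0.13 (adjusted p = 0.00142) in BoM and -0.66 ± 0.07 (adjusted p = 4.1e-06) on average. In LM2 the call was lost without shCtrl 2, shWDR5 2 or shWDR5 3, with adjusted p between 0.0523 and 0.0863.

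OASL had 32.9, 30.4 and 26.9 CPM with shCtrl and 34.5, 27.8 and 25.4 CPM with shWDR5 in LM2, 10.7, 9.95 and 8.63 CPM with shCtrl and 4.43, 4.9 and 4.82 CPM with shWDR5 in BrM3, and 19.8, 12.6 and 11.9 CPM with shCtrl and 8.79, 6.25 and 6.71 CPM with shWDR5 in BoM. In LM2 the groups covered the same range, and in BrM3 and BoM they were apart. The log2 fold change was -0.03 ± 0.17 (adjusted p = 0.95) in LM2, -1.04 ± 0.19 (adjusted p = 0.00208) in BrM3, -1.02 ± 0.18 (adjusted p = 0.00115) in BoM and -0.70 ± 0.11 (adjusted p = 7.5e-05) on average.

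IFIT proteins bind viral RNA that lacks host cap marks and block its translation, and IFIT2, IFIT3, IFIT1 and IFIT5 lie in a row on chromosome 10 between bases 89283694 and 89421605. IFIT1 and IFIT3 were lower in BrM3 and on average, IFIT2 passed in no line, and IFIT5 had positive fold changes in BrM3 and BoM. IFIT1 had 49.1, 38.2 and 39.3 CPM with shCtrl and 40.4, 37.98 and 38.5 CPM with shWDR5 in LM2, 27.3, 25.7 and 25.9 CPM with shCtrl and 20, 16.1 and 15.6 CPM with shWDR5 in BrM3, and 30.1, 24.6 and 29.1 CPM with shCtrl and 25, 22.9 and 24.1 CPM with shWDR5 in BoM. In BrM3 all shWDR5 libraries were below all shCtrl libraries, whereas in LM2 and BoM the ranges overlapped. The log2 fold change of IFIT1 was -0.11 ± 0.11 (adjusted p = 0.663), -0.62 ± 0.12 (adjusted p = 0.00264), -0.22 ± 0.12 (adjusted p = 0.216) and -0.32 ± 0.07 (adjusted p = 0.00141) in LM2, BrM3, BoM and on average.

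IFIT3 had 114, 87.3 and 88.9 CPM with shCtrl and 92.5, 83.2 and 82.98 CPM with shWDR5 in LM2, 69.2, 68.6 and 69.4 CPM with shCtrl and 58.2, 48.6 and 46.7 CPM with shWDR5 in BrM3, and 94.6, 67.6 and 79.4 CPM with shCtrl and 65.3, 61.7 and 71.96 CPM with shWDR5 in BoM. The 3 BrM3 shCtrl libraries lay within 1 CPM of each other and above all shWDR5 libraries of that line, and the groups of the other lines overlapped. Its log2 fold change was -0.44 ± 0.13 (adjusted p = 0.0354) in BrM3 and -0.29 ± 0.07 (adjusted p = 0.00479) on average. The BrM3 call was lost without any 1 of its 3 shCtrl libraries, shWDR5 2 or shWDR5 3 (adjusted p between 0.0857 and 0.142) and with either other expression filter. IFIT2 had log2 fold changes of -0.07 ± 0.19, -0.45 ± 0.20 and -0.20 ± 0.19 in the 3 lines. IFIT5 had 46.9, 44.9 and 53.7 CPM with shCtrl and 63.03, 63.2 and 65.5 CPM with shWDR5 in BoM, which did not overlap, and a log2 fold change of 0.40 ± 0.13 (adjusted p = 0.0507), with an adjusted p of 0.00576 when the replicate number was a block. With GC correction IFIT2 was called lower on average, at -0.23 (adjusted p = 0.0432), and IFIT5 higher, at 0.18 (adjusted p = 0.00169).

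DDX58, which encodes the RNA sensor RIG-I, and IFIH1, which encodes MDA5, passed in no comparison of hairpins. DDX58 was at 46.6 to 113 CPM and its log2 fold change on average was 0.09 ± 0.07, but 42.5% of its 50-base stretches occur also in an overlapping gene model, so its count is uncertain. IFIH1 had -0.22 ± 0.12 on average. EIF2AK2, the kinase PKR that stops translation when double-stranded RNA is present, was higher on average, at 0.23 ± 0.07 (adjusted p = 0.0225). EIF2AK2 had 114, 90.6 and 78.8 CPM with shCtrl and 108, 106 and 88.1 CPM with shWDR5 in LM2, 115, 103 and 116 CPM with shCtrl and 147, 124 and 126 CPM with shWDR5 in BrM3, and 108, 89.2 and 104 CPM with shCtrl and 141, 122 and 119.6 CPM with shWDR5 in BoM. Its groups overlapped in LM2 and were apart in BrM3 and BoM, and in BoM its log2 fold change was 0.35 ± 0.13 (adjusted p = 0.0775), with an adjusted p of 0.0084 when the replicate number was a block.

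**Figure D3:**
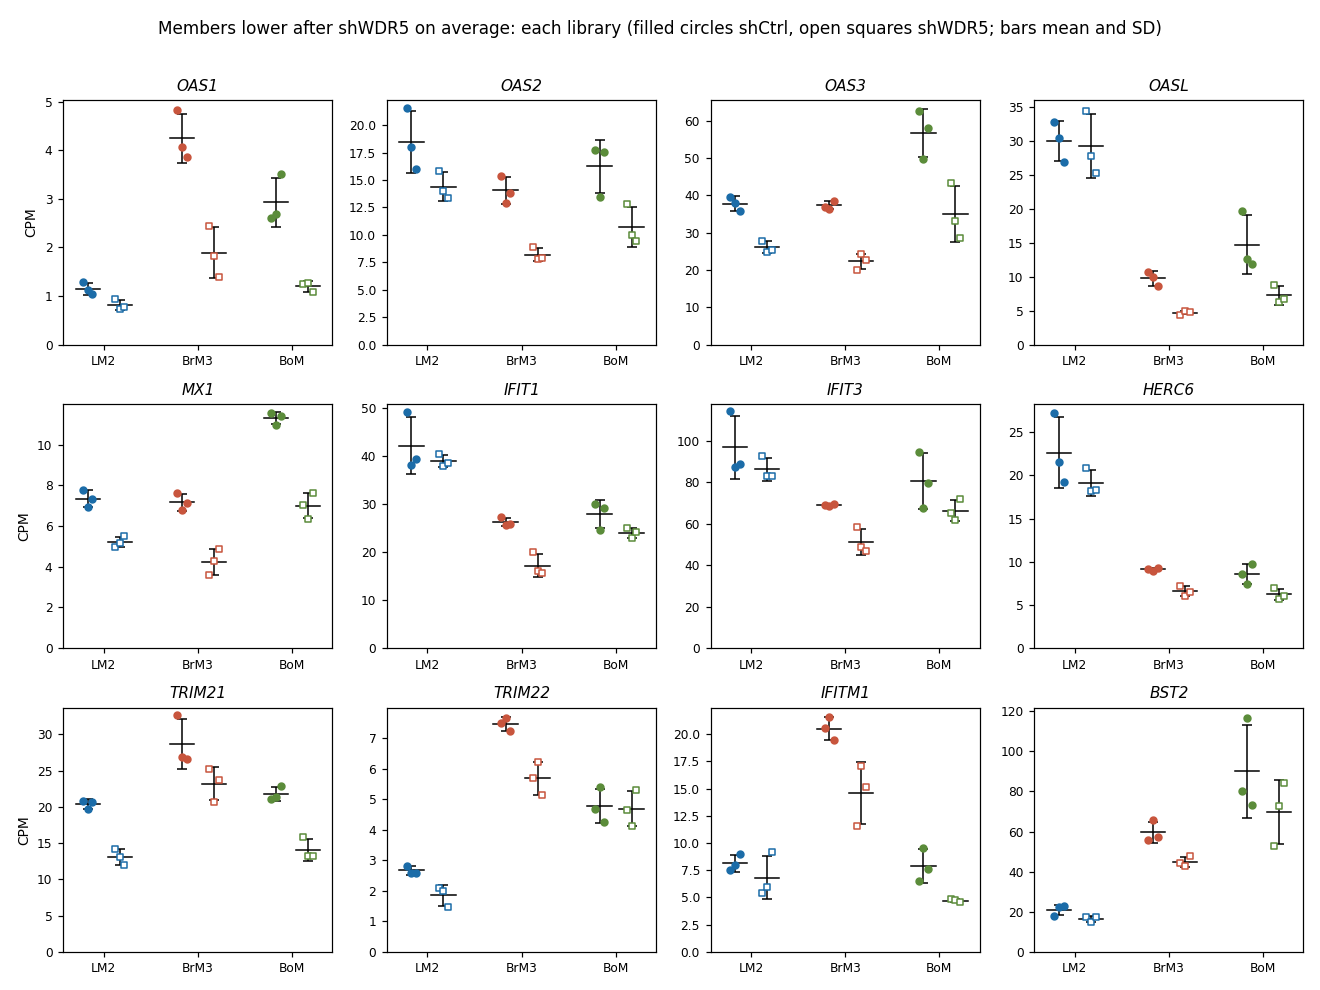
Level in CPM of 12 members that were lower on average after shWDR5, in every library of LM2, BrM3 and BoM, with filled circles for shCtrl, open squares for shWDR5, and bars for the mean and SD of 3 libraries. In OAS3 and MX1 every square lies below every circle of its line, while in OASL the groups of LM2 overlap and those of BrM3 and BoM do not.

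MX1 and MX2 are GTPases that trap incoming viral particles, and they lie side by side on chromosome 21, MX2 at chr21:41361999-41409393 and MX1 at chr21:41420020-41470071. MX1 had 7.79, 6.94 and 7.303 CPM with shCtrl and 4.99, 5.17 and 5.49 CPM with shWDR5 in LM2, 7.61, 6.78 and 7.13 CPM with shCtrl and 3.58, 4.27 and 4.86 CPM with shWDR5 in BrM3, and 11.5, 10.9 and 11.4 CPM with shCtrl and 7.03, 6.37 and 7.62 CPM with shWDR5 in BoM. The ranges of both groups were separate in every line. The log2 fold change was -0.49 ± 0.12 (adjusted p = 0.0174) in LM2, -0.74 ± 0.12 (adjusted p = 0.000932) in BrM3, -0.69 ± 0.12 (adjusted p = 0.00076) in BoM and -0.64 ± 0.07 (adjusted p = 2.3e-06) on average. In LM2 the call was lost without shCtrl 3, shWDR5 1 or shWDR5 2 (adjusted p between 0.0589 and 0.0878), without an expression filter (adjusted p = 0.181) and with LM2 fitted alone. MX2 was below the expression threshold, with counts of 17 to 322. It had 2.56, 2.82 and 2.61 CPM with shCtrl and 1.41, 1.34 and 1.91 CPM with shWDR5 in LM2, 1.89, 2.51 and 2.32 CPM with shCtrl and 1.31, 0.695 and 0.961 CPM with shWDR5 in BrM3, and 3.13, 2.55 and 2.66 CPM with shCtrl and 1.55, 1.003 and 0.651 CPM with shWDR5 in BoM, and its shWDR5 libraries were below its shCtrl libraries in each line. With edgeR's own expression filter MX2 had adjusted p = 0.0552 for LM2, 0.0075 for BrM3 and 0.00172 for BoM, and a log2 fold change of -1.10 (adjusted p = 1.3e-05) on average, a larger fall than that of OAS1. Without a filter its log2 fold change was -0.81 ± 0.23, -1.17 ± 0.25 and -1.33 ± 0.25 in LM2, BrM3 and BoM.

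Guanylate-binding proteins are GTPases that attack the membranes around intracellular pathogens, and both are encoded on chromosome 1. GBP1 was higher and GBP2 did not pass. GBP1 had 34.5, 29.5 and 31.7 CPM with shCtrl and 42.3, 38.1 and 37.4 CPM with shWDR5 in LM2, 31.4, 27.2 and 31.1 CPM with shCtrl and 44.6, 38.5 and 39.1 CPM with shWDR5 in BrM3, and 27.2, 22.4 and 27.02 CPM with shCtrl and 39.2, 33.7 and 30.8 CPM with shWDR5 in BoM. Every shWDR5 library was above every shCtrl library of its line. For GBP1 the log2 fold change was 0.30 ± 0.11 (adjusted p = 0.123) in LM2, 0.44 ± 0.11 (adjusted p = 0.0167) in BrM3, 0.44 ± 0.11 (adjusted p = 0.0135) in BoM and 0.40 ± 0.06 (adjusted p = 0.000171) on average. The BrM3 call was lost without shCtrl 2 or shWDR5 1 (adjusted p = 0.0872 and 0.0512), and the BoM call without shCtrl 2 or shWDR5 1 (adjusted p = 0.0796 and 0.0565) or with BoM fitted alone. GBP2 had log2 fold changes of 0.12 ± 0.13, -0.39 ± 0.13 and -0.16 ± 0.14 in the 3 lines.

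IFITM1, IFITM2 and IFITM3 are small membrane proteins that hinder the fusion of viruses with the cell, and BST2 (tetherin) holds budding viruses on the cell surface. IFITM1 had 7.49, 7.95 and 8.98 CPM with shCtrl and 5.44, 5.92 and 9.13 CPM with shWDR5 in LM2, 20.5, 21.6 and 19.4 CPM with shCtrl and 11.5, 17.1 and 15.1 CPM with shWDR5 in BrM3, and 6.51, 9.57 and 7.57 CPM with shCtrl and 4.83, 4.75 and 4.56 CPM with shWDR5 in BoM. The groups were apart in BrM3 and BoM and overlapped in LM2, where shWDR5 3 was above all shCtrl libraries. For IFITM1 the log2 fold change was -0.29 ± 0.18 (adjusted p = 0.421) in LM2, -0.48 ± 0.18 (adjusted p = 0.0903) in BrM3, -0.74 ± 0.19 (adjusted p = 0.0134) in BoM and -0.50 ± 0.11 (adjusted p = 0.00138) on average, and the BoM call was lost without shCtrl 2 (adjusted p = 0.0878). IFITM2 and IFITM3 had 0.09 ± 0.12 and 0.19 ± 0.14 on average and passed in no line. With GC correction IFITM3 was called higher on average, at 0.32 (adjusted p = 0.00347). The 3 IFITM genes share 50-base stretches with each other or with related genes, so their counts are uncertain. BST2 had 17.8, 22.1 and 22.7 CPM with shCtrl and 17.1, 14.9 and 17.5 CPM with shWDR5 in LM2, 55.9, 65.5 and 57.4 CPM with shCtrl and 44.2, 42.98 and 47.8 CPM with shWDR5 in BrM3, and 79.98, 117 and 73.4 CPM with shCtrl and 52.8, 72.6 and 84.3 CPM with shWDR5 in BoM. It passed in no single line and was lower on average, at -0.37 ± 0.10 (adjusted p = 0.00736), with groups apart in LM2 and BrM3 and overlapping in BoM.

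Of the transcription factors of the response, STAT2, IRF1 and IRF7 were tested. IRF1, which activates interferon-stimulated genes on its own, was higher on average at 0.20 ± 0.07 (adjusted p = 0.0239), a call that was lost without LM2 shWDR5 1 or BrM3 shWDR5 2 (adjusted p = 0.0503 and 0.0574). IRF1 had 35.1, 32.4 and 30.6 CPM with shCtrl and 35.2, 30.1 and 35.5 CPM with shWDR5 in LM2, 22.2, 23.5 and 21.8 CPM with shCtrl and 23.2, 31.4 and 29.1 CPM with shWDR5 in BrM3, and 21.3, 21.8 and 22.3 CPM with shCtrl and 23.2, 25.6 and 29.4 CPM with shWDR5 in BoM. The groups overlapped in LM2 and BrM3 and were apart in BoM. Antisense genes cover 22.9% of the exons of IRF1, and the strand setting of the counts is not given in the sources used here, so its count is uncertain. STAT2 and IRF7 had 0.13 ± 0.05 and 0.17 ± 0.21 on average and passed in no line. With GC correction both were called higher on average, at 0.19 (adjusted p = 0.00294) and 0.42 (adjusted p = 0.000881), and DESeq2 called STAT2 (adjusted p = 0.0196). IRF9 was below the threshold, with 8 to 71 counts per library.

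ISG15 is a ubiquitin-like protein, HERC5 and HERC6 are related ligases, and TRIM21 and TRIM22 are antiviral ubiquitin ligases. TRIM21, which is also a cytosolic antibody receptor, was lower in LM2 and BoM and on average, HERC6 was lower in BrM3 and BoM and on average, and TRIM22 was lower on average. TRIM21 had 20.8, 19.7 and 20.7 CPM with shCtrl and 14.2, 13.1 and 11.99 CPM with shWDR5 in LM2, 32.7, 26.9 and 26.6 CPM with shCtrl and 25.2, 20.7 and 23.7 CPM with shWDR5 in BrM3, and 21.1, 21.4 and 22.9 CPM with shCtrl and 15.9, 13.2 and 13.3 CPM with shWDR5 in BoM. All shWDR5 libraries were below all shCtrl libraries of their line, with the smallest gap in BrM3. For TRIM21 the log2 fold change was -0.63 ± 0.11 (adjusted p = 0.00221) in LM2, -0.31 ± 0.11 (adjusted p = 0.0852) in BrM3, -0.62 ± 0.11 (adjusted p = 0.00118) in BoM and -0.52 ± 0.06 (adjusted p = 1.0e-05) on average.

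HERC5 and HERC6 lie next to each other on chromosome 4, at chr4:88457119-88506163 and chr4:88378739-88443097. HERC6 had 27.2, 21.5 and 19.2 CPM with shCtrl and 20.9, 18.2 and 18.3 CPM with shWDR5 in LM2, 9.11, 8.93 and 9.32 CPM with shCtrl and 7.16, 6.03 and 6.55 CPM with shWDR5 in BrM3, and 8.63, 7.44 and 9.72 CPM with shCtrl and 6.97, 5.75 and 6.05 CPM with shWDR5 in BoM. The groups were apart in BrM3 and BoM and overlapped in LM2. Its log2 fold change was -0.48 ± 0.14 (adjusted p = 0.0339) in BrM3, -0.45 ± 0.14 (adjusted p = 0.0373) in BoM and -0.39 ± 0.08 (adjusted p = 0.00106) on average. The BrM3 call was lost without any 1 of the 3 shCtrl libraries, shWDR5 2 or shWDR5 3 (adjusted p between 0.075 and 0.132), the BoM call without shCtrl 1, shCtrl 3, shWDR5 2 or shWDR5 3 (adjusted p between 0.0829 and 0.129), and both with the other expression filters. The BoM call was also lost with BoM fitted alone. HERC5 had a log2 fold change of 0.02 ± 0.07 (adjusted p = 0.848) on average.

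TRIM22 had 2.82, 2.58 and 2.59 CPM with shCtrl and 2.101, 2.005 and 1.46 CPM with shWDR5 in LM2, 7.49, 7.67 and 7.24 CPM with shCtrl and 5.68, 6.22 and 5.15 CPM with shWDR5 in BrM3, and 4.69, 5.38 and 4.26 CPM with shCtrl and 4.65, 4.13 and 5.29 CPM with shWDR5 in BoM. It was lower in every shWDR5 library of LM2 and BrM3 than in any shCtrl library of the line, and the groups overlapped in BoM. Its log2 fold change was -0.48 ± 0.15, -0.40 ± 0.14 and -0.03 ± 0.14 in LM2, BrM3 and BoM and -0.30 ± 0.08 (adjusted p = 0.00918) on average, with an adjusted p of 0.0892 when no expression filter was applied. ISG15 passed in no line. It had 13.2, 28 and 39.9 CPM with shCtrl and 21.4, 20.6 and 43.2 CPM with shWDR5 in LM2, a spread among replicates that exceeded the difference between the groups.

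PARP9 and PARP14 are ADP-ribosyltransferase family proteins that lie near each other on chromosome 3. PARP14 was higher in BoM and on average. It had 50.1, 45.1 and 33.1 CPM with shCtrl and 57.1, 54.8 and 45.6 CPM with shWDR5 in LM2, 33.7, 27.8 and 28.4 CPM with shCtrl and 47.3, 37.1 and 37.3 CPM with shWDR5 in BrM3, and 31.3, 24.3 and 25.9 CPM with shCtrl and 55.7, 38.9 and 34.1 CPM with shWDR5 in BoM. Its groups were apart in BrM3 and BoM and overlapped in LM2. For PARP14 the log2 fold change was 0.30 ± 0.18 (adjusted p = 0.385) in LM2, 0.43 ± 0.18 (adjusted p = 0.145) in BrM3, 0.66 ± 0.18 (adjusted p = 0.0206) in BoM and 0.46 ± 0.10 (adjusted p = 0.00241) on average, and the BoM call was lost without shCtrl 2, shCtrl 3 or shWDR5 1 (adjusted p between 0.0616 and 0.107) and with BoM fitted alone. PARP9 had -0.05 ± 0.06 (adjusted p = 0.575) on average.

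**Figure D4:**
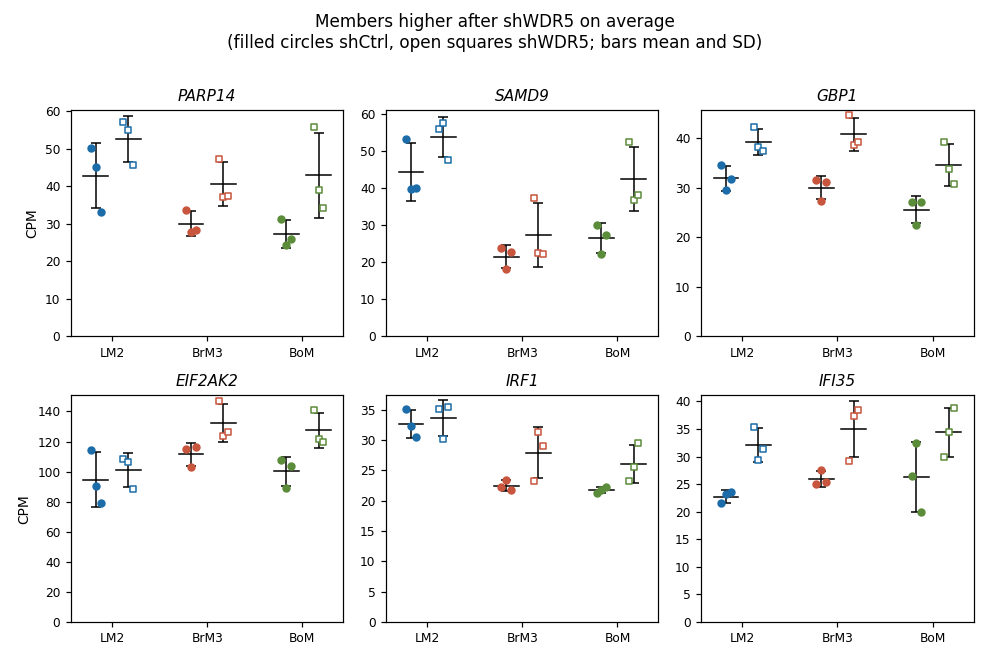
Level in CPM of the 6 members that were higher on average after shWDR5, in every library of LM2, BrM3 and BoM, with filled circles for shCtrl, open squares for shWDR5, and bars for the mean and SD of 3 libraries. In GBP1 every square lies above every circle of its line, and in SAMD9 the groups of LM2 and BrM3 overlap.

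SAMD9 and SAMD9L, neighbours on chromosome 7, encode proteins that restrict poxviruses and cell growth. SAMD9 had 53.2, 39.8 and 39.9 CPM with shCtrl and 55.9, 57.6 and 47.5 CPM with shWDR5 in LM2, 23.7, 18.03 and 22.6 CPM with shCtrl and 37.3, 22.5 and 22.2 CPM with shWDR5 in BrM3, and 29.99, 22.1 and 27.2 CPM with shCtrl and 52.3, 36.6 and 38.1 CPM with shWDR5 in BoM. Among the 3 lines, the groups were apart in BoM only. For SAMD9 the log2 fold change was 0.28 ± 0.20 (adjusted p = 0.468) in LM2, 0.34 ± 0.20 (adjusted p = 0.319) in BrM3, 0.68 ± 0.20 (adjusted p = 0.0271) in BoM and 0.43 ± 0.11 (adjusted p = 0.00697) on average, and the BoM call was lost without shCtrl 2, shCtrl 3 or shWDR5 1 (adjusted p between 0.056 and 0.125). SAMD9L had 0.26 ± 0.12 (adjusted p = 0.0961) on average, and with GC correction it was called higher, at 0.24 (adjusted p = 0.0184).

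IFI35, a protein that modulates innate signalling, passed in no single line and was higher on average. It had 21.5, 23.3 and 23.5 CPM with shCtrl and 35.4, 29.4 and 31.4 CPM with shWDR5 in LM2, 24.96, 27.6 and 25.3 CPM with shCtrl and 29.1, 37.3 and 38.5 CPM with shWDR5 in BrM3, and 26.5, 32.5 and 19.9 CPM with shCtrl and 29.9, 34.5 and 38.8 CPM with shWDR5 in BoM. All shWDR5 libraries were above all shCtrl libraries in LM2 and BrM3, and BoM overlapped because of shCtrl 2. For IFI35 the log2 fold change was 0.49 ± 0.15 (adjusted p = 0.0619) in LM2, 0.44 ± 0.15 (adjusted p = 0.0733) in BrM3, 0.38 ± 0.15 (adjusted p = 0.0964) in BoM and 0.44 ± 0.09 (adjusted p = 0.0009) on average. With DESeq2 it was called in LM2 (adjusted p = 0.0202) and BrM3 (adjusted p = 0.0372), and with GC correction in every line (adjusted p of 0.00416 or less).

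ISG20, an exonuclease that degrades single-stranded RNA, was lower in BrM3 and on average. It had 4.37, 5.604 and 7.16 CPM with shCtrl and 4.77, 4.07 and 5.71 CPM with shWDR5 in LM2, 2.604, 4.07 and 3.19 CPM with shCtrl and 1.48, 2.12 and 1.57 CPM with shWDR5 in BrM3, and 1.99, 3.23 and 2.21 CPM with shCtrl and 1.71, 1.12 and 2.03 CPM with shWDR5 in BoM. The groups were apart in BrM3 and overlapped in LM2 and BoM. The log2 fold change of ISG20 was -0.27 ± 0.23 (adjusted p = 0.596) in LM2, -0.92 ± 0.26 (adjusted p = 0.0312) in BrM3, -0.62 ± 0.27 (adjusted p = 0.136) in BoM and -0.60 ± 0.15 (adjusted p = 0.00445) on average, and the BrM3 call was lost without shCtrl 2, shCtrl 3, shWDR5 1 or shWDR5 3 (adjusted p between 0.0731 and 0.138).

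IFI6, a small membrane protein, was lower on average at -0.30 ± 0.11 (adjusted p = 0.0427). That call was lost in 13 of 18 fits that left out a library (adjusted p between 0.0516 and 0.0939), namely without any of the LM2 libraries but shWDR5 3, without BrM3 shCtrl 2, shCtrl 3, shWDR5 1 or shWDR5 3, and without BoM shCtrl 2, shCtrl 3, shWDR5 1 or shWDR5 2. It was also lost with either other expression filter and after GC correction (adjusted p = 0.157). IFI27, IFI44 and DDX60 had -0.25 ± 0.18, -0.10 ± 0.08 and -0.23 ± 0.13 on average and passed in no line. With GC correction DDX60 was called lower in BrM3, at -0.55 (adjusted p = 0.0258), and on average, at -0.24 (adjusted p = 0.0383). Besides MX2 and IRF9, the members below the threshold were IFI44L with 9 to 165 counts per library, USP18 with 16 to 148, XAF1 with 19 to 249, CMPK2 with 0 to 16 and RSAD2 with 0 to 33. RSAD2 encodes viperin, which is strongly induced by interferon in many cell types. After shWDR5 it passed in no line with either other expression filter. Among the shCtrl libraries it was lower in BrM3 and BoM than in LM2 with edgeR's own filter. The log2 fold change was -2.99 (adjusted p = 0.0022) for BrM3, and adjusted p was 0.0282 for BoM. RSAD2 had 22, 28 and 33 counts in these LM2 libraries, 2, 2 and 3 in BrM3, and 10, 2 and 1 in BoM. It passed that filter only through LM2 libraries, where it was highest, and what this does to the differences was not tested. With edgeR's own filter XAF1 was lower on average after shWDR5, at -0.50 (adjusted p = 0.0181). Among the shCtrl libraries, with that filter, IRF9 was higher in BrM3 and BoM than in LM2, at 0.93 (adjusted p = 0.00196) and 0.90 (adjusted p = 0.0029). USP18 was higher in BoM than in LM2, at 0.996 (adjusted p = 0.000408), and than in BrM3, at 1.11 (adjusted p = 0.000384). IFI44L was lower in BrM3 than in LM2, at -0.81 (adjusted p = 0.0458), and XAF1 was higher in BoM than in BrM3, at 0.72 (adjusted p = 0.0403). An antisense gene covers 38.3% of the exons of XAF1, and the strand setting of the counts is not given in the sources used here. Of the sequence stretches of USP18, 23.1% occur also in other gene models, as do 20.1% of those of IRF9 and 16.4% of those of IFI6. The counts of XAF1, USP18, IRF9 and IFI6 are therefore uncertain.

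Whether the response differed between the lines was tested directly. Of all genes, 0.00822% passed for BrM3 against LM2, 0% for BoM against LM2 and 0.00822% for BoM against BrM3, and 0 members passed. By unadjusted p under 0.05, 4, 4 and 1 members did, beside 361, 630 and 353 of all 12160 genes, and DESeq2 called 0 members and 18, 40 and 4 of all genes. OASL had the largest differences of a tested member from LM2, -1.01 ± 0.26 (adjusted p = 0.439) between BrM3 and LM2 and -0.99 ± 0.25 (adjusted p = 0.239) between BoM and LM2, while BoM and BrM3 differed by 0.02 ± 0.26 (adjusted p = 1). Without an expression filter the first and second had adjusted p = 0.0396 and 0.0175, and with the replicate number as a block, under the same filter as the reported values, 0.048 and 0.0306. For OAS1, the differences from LM2 were -0.76 ± 0.29 (adjusted p = 1) in BrM3 and -0.80 ± 0.30 (adjusted p = 0.712) in BoM. For MX1 and OAS3 they lay between -0.25 and -0.16, and the SE was 0.17 for MX1 and 0.18 for OAS3. With GC correction and the block, OASL passed in both and IFIT1 passed between BrM3 and LM2, at -0.51 (adjusted p = 0.0332). With the main filter and without the block, a call in 1 line and not in another is not a tested difference for any member.

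Other genes of the interferon pathway were read from a list arranged by role. All 10 interferon genes on it, among them IFNB1, IFNG and IFNL1, had between 0 and 3 counts in each library, so none was tested. Among the receptor genes 4 were tested, of which LM2 had 1 lower, BrM3 had 1 and BoM had 2, against 4.80%, 7.96% and 10.8% of all genes. The shares of all genes given for the members are the background for each list here. IFNLR1, the receptor chain for type III interferon, was the gene lower in every line. It had 1.35, 1.75 and 1.54 CPM with shCtrl and 0.519, 0.588 and 0.840 CPM with shWDR5 in LM2, 3.93, 3.17 and 3.84 CPM with shCtrl and 1.71, 1.62 and 1.84 CPM with shWDR5 in BrM3, and 2.32, 2.83 and 2.21 CPM with shCtrl and 0.347, 0.579 and 0.728 CPM with shWDR5 in BoM. The groups were apart everywhere, and the log2 fold change was -1.34 ± 0.23 (adjusted p = 0.00158), -1.07 ± 0.20 (adjusted p = 0.00232) and -2.20 ± 0.24 (adjusted p = 1.2e-05). IFNLR1 passed the expression threshold only through BrM3 shCtrl libraries, where it was highest. IFNGR2 was lower in BoM, at -0.40 ± 0.11 (adjusted p = 0.0221). On average 1 of the 4 tested receptor genes was higher and 2 were lower, against 15.6% and 19.9% of all genes.

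Of 6 kinases and STATs, JAK2 was higher in BoM, at 0.64 ± 0.16 (adjusted p = 0.00968), and 0 were lower. On average 3 of the 6 were higher and 0 were lower, against 15.6% and 19.9% of all genes, and their median was 0.16. Of 13 tested genes listed under the induction of interferon or its control, TMEM173 (STING), the adaptor of cytosolic DNA sensing, was lower in BrM3, at -0.75 ± 0.12 (adjusted p = 0.000937), and in BoM, at -0.79 ± 0.12 (adjusted p = 0.00038). CGAS, the DNA sensor upstream of it, was higher in BrM3, at 0.32 ± 0.09 (adjusted p = 0.0339). In BoM, IFI16 was higher at 0.49 ± 0.13 (adjusted p = 0.0184), and DHX58 and IKBKE were lower at -0.55 ± 0.18 (adjusted p = 0.0455) and -0.51 ± 0.17 (adjusted p = 0.0498). On average 2 of the 13 were higher and 3 were lower, against the same shares of all genes. Of 4 tested negative regulators, 0 passed in any line or on average, where the median was 0.12.

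Of 27 other interferon targets that were tested, 2 were higher and 2 lower in LM2, 2 higher and 5 lower for BrM3, 2 higher and 4 lower for BoM, and 6 higher and 7 lower on average. Of all genes, 1.49% were higher and 4.80% lower in LM2, 2.92% and 7.96% in BrM3, 5.41% and 10.8% in BoM, and 15.6% and 19.9% on average. The counts of the 27 lay somewhat above these shares in each case, on 2 to 7 genes, and whether they differ from them was not tested. LAMP3, a lysosomal membrane protein, had 3.198, 3.24 and 2.81 CPM with shCtrl and 1.83, 2.095 and 1.62 CPM with shWDR5 in LM2, 4.92, 4.48 and 4.35 CPM with shCtrl and 2.05, 1.99 and 1.84 CPM with shWDR5 in BrM3, and 2.55, 2.497 and 2.16 CPM with shCtrl and 0.855, 0.810 and 0.613 CPM with shWDR5 in BoM. All shWDR5 libraries were below all shCtrl libraries of their line, and the log2 fold change was -0.70 ± 0.15 (adjusted p = 0.00727), -1.24 ± 0.15 (adjusted p = 7.6e-05) and -1.65 ± 0.17 (adjusted p = 7.1e-06). LAMP3 passed the expression threshold through BrM3 shCtrl libraries, where it was highest. TDRD7 was also lower in all 3 lines, from -0.47 ± 0.10 in BrM3 to -0.40 ± 0.09 in LM2. SLFN5 was higher in all 3 lines, at 0.90 ± 0.17 (adjusted p = 0.00319), 0.67 ± 0.17 (adjusted p = 0.0181) and 0.99 ± 0.18 (adjusted p = 0.00108). SP100, a nuclear body protein, was higher at 0.34 ± 0.09, 0.45 ± 0.09 and 0.64 ± 0.09. 

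The level of the members in control cells was compared between lines in the shCtrl libraries. Against LM2, BrM3 had 7 members higher and 18 lower, against 24.2% and 23.4% of all genes, which is 19.4% and 50% of the 36 members. BoM had 7 higher and 17 lower than LM2, or 19.4% and 47.2%, against 26.0% and 25.8% of all genes. BoM had 6 higher and 6 lower than BrM3, against 17.8% and 19.8%. In that comparison the replicate numbers were taken to pair the libraries, and with the number as a block 16 members were called, against 43.96% of all genes, with IFIT2 at 0.30 (adjusted p = 0.0291) and SAMD9L at 0.51 (adjusted p = 0.0148) higher and IFIH1 at -0.41 (adjusted p = 0.0177) and GBP1 at -0.23 (adjusted p = 0.0376) lower in BoM. Each shCtrl group enters 2 of these 3 comparisons. More members were thus lower in BrM3 and BoM than in LM2 than the background gives. BST2, OAS1 and TRIM22 were the most strongly higher ones in both, but OAS1 and TRIM22 passed the expression threshold only through libraries of those lines.

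**Figure D5:**
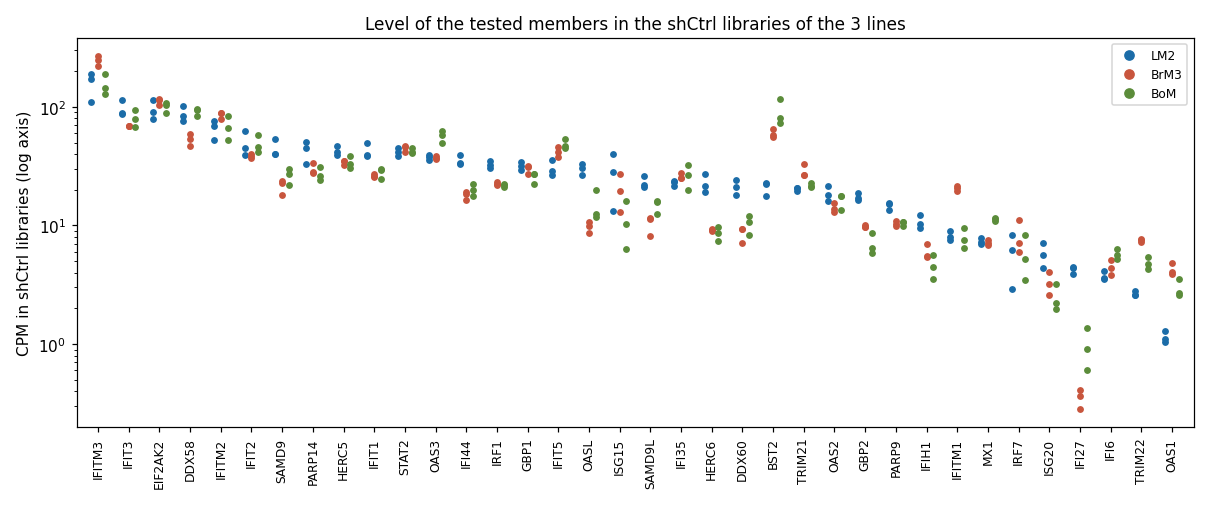
Level in CPM, on a log axis, of the 36 tested members in each of the 3 shCtrl libraries of LM2 (blue), BrM3 (red) and BoM (green), ordered by the mean in LM2. IFI27 and OASL lie highest in LM2, while BST2 and OAS1 lie lowest there.

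IFI27, a mitochondrial protein that is among the genes most induced by interferon, had 3.91, 4.42 and 4.45 CPM in LM2, 0.366, 0.409 and 0.283 CPM in BrM3, and 1.36, 0.910 and 0.602 CPM in BoM in the shCtrl libraries. LM2 was far above both other lines, by log2 fold changes of -3.59 ± 0.28 (adjusted p = 1.5e-08) for BrM3 and -2.10 ± 0.25 (adjusted p = 2.7e-06) for BoM over LM2, and BoM was above BrM3 by 1.49 ± 0.32 (adjusted p = 0.00149). IFI27 passed the expression threshold only through LM2 libraries, where it was highest, and OAS1 and TRIM22 only through libraries of the other lines. In shCtrl, IFI27 had 11 to 18 counts per library in BrM3 and 12 to 54 in BoM. What this selection does to the differences was not tested. OASL had the same order, LM2 then BoM then BrM3, with -1.62 ± 0.18 and -1.02 ± 0.18 relative to LM2 and 0.60 ± 0.18 (adjusted p = 0.0143) between BoM and BrM3, which was lost without BrM3 shCtrl 3 or BoM shCtrl 1 (adjusted p = 0.0641 and 0.121). HERC6 was lower in BrM3 and BoM than in LM2 by -1.31 ± 0.13 and -1.40 ± 0.14, and those 2 lines did not differ beyond their spread. OAS1 had the opposite order, with BrM3 1.91 ± 0.19 and BoM 1.36 ± 0.20 over LM2, and BoM -0.56 ± 0.18 (adjusted p = 0.0249) against BrM3, which was lost without BrM3 shCtrl 1, BoM shCtrl 1 or BoM shCtrl 2 (adjusted p between 0.08 and 0.105).

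BST2 was lowest in LM2 and highest in BoM, by 1.51 ± 0.17 (adjusted p = 1.7e-06) in BrM3 and 2.10 ± 0.18 (adjusted p = 3.4e-08) in BoM over LM2, and the step from BrM3 to BoM, 0.60 ± 0.17 (adjusted p = 0.0111), was lost without BoM shCtrl 2 (adjusted p = 0.0822). TRIM22 was highest in BrM3, at 1.49 ± 0.14 over LM2, and lower in BoM than in BrM3 by -0.64 ± 0.14 (adjusted p = 0.00187). IFITM1 was higher in BrM3 than in LM2, at 1.33 ± 0.18 (adjusted p = 1.0e-05), and than in BoM, whereas BoM and LM2 differed by -0.05 ± 0.18. MX1 and OAS3 were higher in BoM than in LM2, at 0.62 ± 0.12 and 0.59 ± 0.13, and than in BrM3, at 0.65 ± 0.12 and 0.60 ± 0.13, while LM2 and BrM3 did not differ beyond their spread for either gene.

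Other members were lower in both BrM3 and BoM than in LM2. DDX60, an RNA helicase, had 24.2, 21 and 18.01 CPM in LM2, 9.34, 7.06 and 9.42 CPM in BrM3, and 11.9, 8.27 and 10.7 CPM in BoM, and its log2 fold change was -1.29 ± 0.22 (adjusted p = 0.000156) in BrM3 and -1.03 ± 0.22 (adjusted p = 0.00102) in BoM over LM2. SAMD9L had 26.2, 21.8 and 21.1 CPM in LM2, 11.6, 8.21 and 11.3 CPM in BrM3, and 15.8, 12.4 and 16.1 CPM in BoM, and IFI44 had 39.1, 33.3 and 33.05 CPM in LM2, 19.1, 16.4 and 18.4 CPM in BrM3, and 22.4, 17.8 and 19.8 CPM in BoM. The LM2 libraries of SAMD9L and IFI44 were above all libraries of both other lines. SAMD9 had -1.04 ± 0.20 and -0.74 ± 0.20 in the same comparisons. GBP2 had 18.9, 16.4 and 17.1 CPM in LM2, 10.1, 9.77 and 9.71 CPM in BrM3, and 6.51, 8.66 and 5.87 CPM in BoM, and IFIH1 had 12.3, 10.4 and 9.52 CPM in LM2, 6.92, 5.45 and 5.48 CPM in BrM3, and 5.62, 3.51 and 4.46 CPM in BoM. GBP2 and IFIH1 were called lower in BrM3 and BoM than in LM2, and the step of GBP2 from BrM3 to BoM was lost without BoM shCtrl 3 (adjusted p = 0.0506).

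DDX58 was lower in BrM3 than in LM2, at -0.72 ± 0.13 (adjusted p = 0.000226), and than in BoM, with 102, 83.2 and 76.5 CPM in LM2, 59.05, 46.6 and 53.5 CPM in BrM3, and 93.2, 84.4 and 95.5 CPM in BoM. ISG20 was lower in both lines than in LM2, at -0.82 ± 0.24 and -1.21 ± 0.25, and the first was lost without LM2 shCtrl 3 or BrM3 shCtrl 1 (adjusted p between 0.0526 and 0.0592). ISG15 was lower in BoM than in LM2, at -1.30 ± 0.42 (adjusted p = 0.0149), which was lost without LM2 shCtrl 3 or BoM shCtrl 3 (adjusted p between 0.0715 and 0.0934). IFITM3 was higher in BrM3 than in LM2 and BoM, at 0.64 ± 0.24 (adjusted p = 0.0329) and, for BoM over BrM3, -0.68 ± 0.24 (adjusted p = 0.0323). The first was lost without LM2 shCtrl 1, BrM3 shCtrl 1 or BrM3 shCtrl 2 (adjusted p between 0.0649 and 0.143), and the second without BrM3 shCtrl 1, BrM3 shCtrl 2, BoM shCtrl 1 or BoM shCtrl 3 (adjusted p between 0.0651 and 0.125). TRIM21 was higher in BrM3 than in LM2, at 0.49 ± 0.11 (adjusted p = 0.00136), and the difference between BoM and BrM3, -0.40 ± 0.11 (adjusted p = 0.00933), was lost without BrM3 shCtrl 1 (adjusted p = 0.0633).

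Per kilobase of annotated exon and averaged over all libraries, the levels ran from 70.2 CPM per kb for IFITM3 and 46.8 for IFITM2 to 0.0372 for RSAD2 and 0.0178 for CMPK2. BST2 at 45.7 and ISG15 at 22.1 CPM per kb came next to the top, and the OAS genes lay at 2.52 for OASL, 1.99 for OAS3, 1.22 for OAS2 and 0.157 for OAS1. The annotated exons of all transcripts were summed for this, which lowers the value of genes with many long transcripts, such as MX1 with 17984 bases and OAS3 with 18045.

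The members with the widest spread among replicates were ISG15 and IRF7, with an SD within groups of 0.60 and 0.53 on the log2 CPM scale. They are also the members richest in G and C, at 63.4% and 66.8% of the bases of their longest annotated transcript. Across the 36 tested members the correlation of this SD with GC content was 0.55 (Pearson) and 0.27 (Spearman), as a description over genes that share the same libraries. The correlation of the averaged log2 fold change with GC content was -0.05 (Pearson) and -0.15 (Spearman). IRF7 had 2.94, 6.16 and 8.32 CPM in the LM2 shCtrl libraries, which had the same order as those of ISG15, and both genes were also at their highest in the third shWDR5 library of LM2.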

How the data were processed

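RNA-sequencing covered the shCtrl and shWDR5-1 cells of each line. Stranded mRNA libraries were read at both ends, and the authors mapped the reads to hg38 (CASAVA 1.8.2, STAR 2.7.0 and DESeq2 stand in the submitters' processing notes) and deposited raw counts of reads per gene, without normalization. The spike-ins that the labels mention have 0 rows in the table. The authors also deposited log2 fold changes and adjusted p-values per line, which were not used. All per-sample count columns were mapped to a sample by line, hairpin and replicate number, and 0 were left unused.

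Counts were fitted with edgeR 4.0.16 (limma 3.58.1) in R 4.3.3 (quasi-likelihood fit of all 6 groups together) with TMM scaling and 12 residual degrees of freedom. The study's HTSFilter criterion was recomputed over 100 thresholds from 1 to 200. CPM are counts scaled to the TMM-adjusted library size, and SE were derived from the F statistic. Values rest on 3 libraries per group, so p-values measure the spread between passages. Replicates of a group differed by more than sampling noise (chi-square per gene of at least 5.13). The fit was tested on simulated data. Alternatives were DESeq2 1.42.0, edgeR's filterByExpr, no filter, a replicate block, a loess correction for GC content (span 0.5) with and without that block, the compared groups fitted alone, and leaving out each library.

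Replicate numbers come from the titles. Deviations of same-numbered shCtrl and shWDR5 libraries from their group means correlated at 0.56, 0.32 and 0.14 in BoM, and those of BrM3 and BoM shCtrl libraries at 0.28, 0.59 and 0.27, so these numbers were taken to pair the samples. In the other comparisons at least 1 correlation was below 0.1, as in LM2 at 0.57, 0.03 and 0.73. The titles give replicate numbers only and no pairing is stated, so whether the samples are paired remains uncertain in every comparison.

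The members and lists were chosen with earlier results of these data known. By rule, all 43 members were accounted for, and up to 12 called members with the largest absolute log2 fold change per comparison were given with values per library, with up to 4 called pathway genes per role. IFIT5, MX2, IRF7 and the control genes were added after their values were seen. Sequences are from RefSeq. The labels name BrM and BrM2 where the paper names BrM3.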

Additional observations from a re-analysis of the deposited data

How the results depend on the processing

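The number of members called was within 1.5 times the reported one in most alternatives. With the replicate block it was 7 in LM2 (reported 3) and 18 in BrM3 (reported 10). GC correction gave 6 calls in LM2, and 18 each for BrM3 and BoM (reported 11 in BoM), and with the block added 12, 22 and 19, against 28.5%, 37.2% and 39.8% of all genes (36 members tested). For the difference of BrM3 from LM2 it was 1 without a filter, 1 with the block and 2 with GC correction and the block, and for BoM from LM2 it was 1, 1 and 1 (reported 0 in each). For shCtrl BoM against BrM3 it was 20 with GC correction and the block (reported 12). Single libraries left out gave 1 to 4 called members in LM2 (1 without shWDR5 2), 6 to 12 in BrM3 (6 without shCtrl 2), 8 to 13 in BoM, 18 to 22 on average, 0 for the differences, 21 to 25 for BrM3 and for BoM against LM2, and 9 to 13 for BoM against BrM3. The members gained in the differences were OASL in each case and IFIT1 for BrM3 against LM2 with GC correction and the block (adjusted p = 0.0332). No called member changed sign in any alternative. In LM2 and BrM3 the numbers were not taken to pair the samples, and the block raised the calls as given. Where the numbers were taken to pair the samples, the block gave 13 calls in BoM and 16 for shCtrl BoM against BrM3, and in BoM it ended no call. Over all genes the calls were 765 in LM2 against 292 with LM2 fitted alone, 1147 with DESeq2 and 1443 with the block, 1323 in BrM3 against 2310 with the block, and 1967 in BoM against 913 with BoM fitted alone and 3205 with the block. GC correction gave 1987, 2978 and 3424. With 322 counts or fewer in every library, 7 members were too low to be tested under the main filter, and the causes of these changes were not tested.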
